A study of Mus musculus with 12 samples.

Results

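Gene expression in aortic tissue of wild-type (WT) mice was compared between day 3 of BAPN + AngII and the time before the challenge, across all genes of the array. The arrays were chosen by the titles of their samples. They are 6 of the 12 arrays of the series, 3 from WT mice at day 3 (replicates 1, 3 and 4) and 3 from WT mice before challenge (replicates 1, 2 and 3). WT here means littermates of the knockout line that are homozygous for the floxed Socs3 allele (Socs3fl/fl) and lack the SM22-Cre transgene, so that mice of both groups had this allele in all cells and no Cre. All mice were adult males on a mixed background labelled 129S5/SvEvBrd, C57BL6 and SJL. The tissue is labelled aorta, with no part of it named, while the extraction protocol speaks of cells. At day 3, mice had received BAPN at 150 mg/kg/day and AngII at 1000 ng/kg/min through osmotic minipumps. Whether mice sampled before challenge carried pumps is not given in the sources used here. Nor is it given whether an array held the RNA of 1 mouse or a pool. The p-values below thus measure only the spread between samples, which unless stated is estimated from all 12 arrays of the series and not from these 6 alone.

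BAPN (beta-aminopropionitrile) blocks lysyl oxidases, the enzymes that crosslink collagen and elastin, and AngII (angiotensin II) is a hormone that constricts vessels. Mice given both can develop aortic dissection. Smooth muscle cells of the normal media hardly divide and are filled with contractile proteins, whereas cells of an injured wall can enter the cell cycle, lay down matrix and secrete cytokines that draw leukocytes. The comparison asks how expression in the aorta of WT mice differed between day 3 and the time before.

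Each array gave 1 background-subtracted fluorescence intensity per probe. A level below is log2 of that intensity minus the 75th percentile of the same array, so that a level of 0 is the 75th percentile and a difference of 1 is a 2-fold change. A level can be compared between arrays for 1 gene but not between genes, since probes differ in brightness. Between 58.36% and 59.68% of the spots were well above background on the arrays before challenge, and 58.87%, 55.6% and 55.44% on replicates 1, 3 and 4 at day 3, and no probe of a tested gene was saturated. All 6 arrays lay on slide 1, those before challenge in row 1 of the slide and those at day 3 in row 2, so that row and challenge cannot be told apart. Each of the 8 smooth muscle markers was above the 75th percentile on all 6 arrays, as the tissue label says. Wherever 3 levels are given, those before challenge are in the order of replicates 1, 2 and 3, and those at day 3 in the order of replicates 1, 3 and 4.

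Of 22765 genes tested, 816 (3.58%) were higher and 249 (1.09%) were lower at day 3 at an adjusted p under 0.05 (limma, 4 group means on all 12 arrays, Benjamini-Hochberg), so that 76.6% of the calls were rises. At an unadjusted p under 0.01 and a change of over 4-fold, 252 genes (1.11%) were higher and 40 (0.176%) lower, and 226 of these 292 were also called at the adjusted threshold. The 3 levels at day 3 lay above all 3 levels before in 4705 genes (20.7%) and below them in 3333 (14.6%). The median log2 fold change over all genes was -0.02. Of the called genes, 62 were not well above background on any array before challenge and were so on all 3 at day 3, and 31 were the reverse. Below, a gene is said to have risen or fallen only if it passed the adjusted threshold in this fit.

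The adjusted calls depended on the set of arrays. In a fit of the 6 WT arrays alone, 0 genes passed the adjusted threshold (limma, smallest adjusted p 0.0762), with 6526 genes at an unadjusted p under 0.05 against 6055 (26.6%) in the fit of all 12. Without replicate 1 or 2 before challenge, or replicate 1 or 3 at day 3, 0 genes passed as well, with 3598 to 5414 at an unadjusted p under 0.05, and without replicate 3 before challenge 3 genes passed. Replicate 4 at day 3 stood apart from the other day 3 arrays. Without it 3627 genes passed, of which 2268 (9.96%) were higher and 1359 (5.97%) lower. Scaling moved the direction of the calls. With arrays set to their medians, 91.7% of 1062 calls were rises and the median of all genes was 0.17, and with the 75th percentile taken over the probes that every array measured well above background, 47.4% of 703 calls were rises and the median was -0.18. None of the 79 called genes named by rule turned direction under these or the other alternatives tried. However, the groups did not overlap in any of the 1065 called genes. Fits that left out 1 array, or changed only the spread or the array weights, thus could not turn them. Of the 27 list medians, 21 kept their sign in each alternative, and those of IL-6 family signalling, angiotensin signalling, the mTOR and Akt pathway, immediate early genes, the circadian clock and heat shock chaperones did not.

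**Figure D1:**
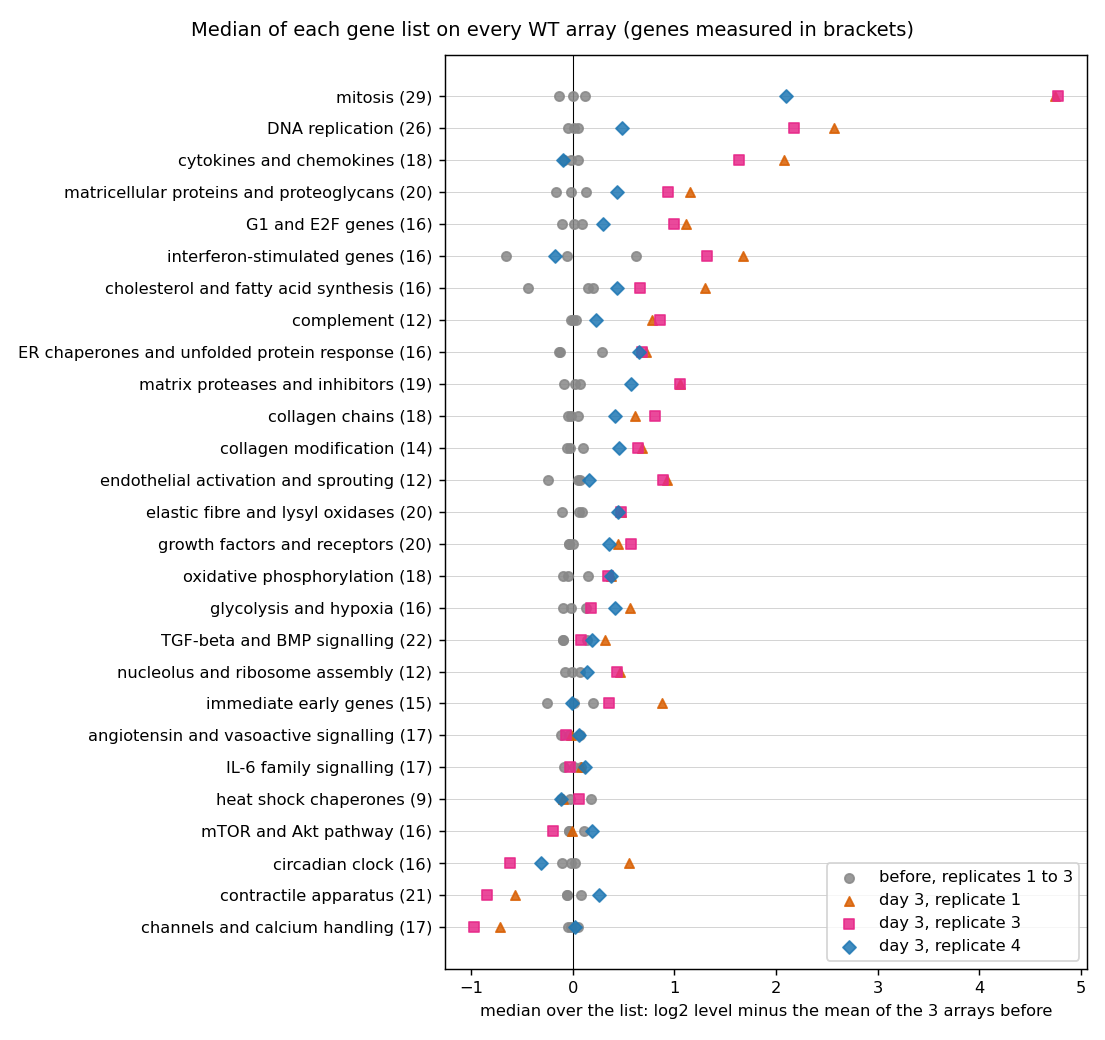
Median over each of 27 gene lists of the log2 level on a WT array minus the mean of the 3 arrays before challenge (horizontal axis, log2 units), with the number of genes measured in brackets. Grey circles are the arrays before challenge and coloured symbols the 3 day 3 arrays. Mitosis stands at 4.74 and 4.78 on day 3 replicates 1 and 3 and at 2.10 on replicate 4, while the contractile list is below 0 on the former and at 0.26 on the latter. The signs of these values held under each scaling tried, but the cytokine and interferon lists, just below 0 on replicate 4, lie above 0 with arrays set to their medians.

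Genes of mitosis had the highest median change of the 27 gene lists. Of 29 measured mitosis genes, 27 rose, 0 fell, and 26 rose over 4-fold at an unadjusted p under 0.01, against 3.58% and 1.11% of all genes. Some of these genes were kept without a signal well above background on every array before challenge, which favours a rise. In a fit of probes well above background on the 6 WT arrays, 20 of 22 mitosis genes were called higher, against 929 of all 19959 genes. There 19 of the 22 were over 4-fold higher at an unadjusted p under 0.01, against 140 of all. The median log2 fold change of the list was 3.92, or 3.78 with the 5 genes that have only a bound set to it, against -0.02 over all genes. The median over the list stood 4.74, 4.78 and 2.10 above the mean before challenge on the 3 day 3 arrays, where all genes stood at -0.03, 0.01 and 0.06. Only Ndc80, of the kinetochore, and Pttg1 (securin) were not called. Pttg1 ranged from -0.10 to 4.84 before challenge alone. With normexp background correction the medians on the 3 day 3 arrays were 3.41, 3.42 and 1.12, so that the size on replicate 4 depended on the background correction by over 1.5 times, and 21 genes were over 4-fold higher. The count over 4-fold at an unadjusted p under 0.01 was 26 in the fit of the 6 WT arrays and 24 to 26 when each array was left out in turn, while the adjusted count of the list was 0 in the fits with 0 or 3 calls in all and 27 without day 3 replicate 4.

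Promoters of these genes are shown because the genes rose together and because many mitotic promoters are known to carry a pair of short elements, the cell cycle homology region, with the letters TTTGAA, and the CCAAT box. RefSeq gave 27 promoters of 25 genes of the list, each from 250 bases before to 50 after the start. TTTGAA was found on either strand in 19 of 27 (70.4%), against 17.9% of all 32851 promoters, CCAAT in 20 (74.1%) against 37.4%, and both in 17 (63.0%) against 6.95%. The 150 bases before the start of 3 mitosis genes follow, 5′ to 3′ on the strand of the gene (RefSeq, GRCm38.p6), with both elements in capitals wherever they occur on either strand. The mitotic kinase gene Cdk1 is at chr10:69352913-69353062 (minus strand), Cdc20, whose protein activates the anaphase-promoting complex, at chr4:118437344-118437493 (minus strand), and the topoisomerase gene Top2a at chr11:99024190-99024339 (minus strand).
Cdk1: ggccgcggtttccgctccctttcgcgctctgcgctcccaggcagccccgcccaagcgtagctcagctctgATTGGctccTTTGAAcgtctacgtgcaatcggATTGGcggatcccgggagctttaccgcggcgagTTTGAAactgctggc
Cdc20: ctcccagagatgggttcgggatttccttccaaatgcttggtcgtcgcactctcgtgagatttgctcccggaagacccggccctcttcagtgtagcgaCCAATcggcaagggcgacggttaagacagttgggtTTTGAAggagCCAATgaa
Top2a: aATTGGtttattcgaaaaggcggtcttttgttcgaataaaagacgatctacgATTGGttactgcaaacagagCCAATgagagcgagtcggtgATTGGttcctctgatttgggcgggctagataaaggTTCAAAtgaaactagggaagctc

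Mki67, the gene of the proliferation antigen Ki-67, had levels of -0.53, 0.09 and -0.69 before challenge and of 4.53, 4.65 and 1.69 at day 3. All 3 day 3 arrays were above all arrays before, with replicate 4 between the others and the start. The log2 fold change was 4.0 (SE 0.74), which is 16.0-fold, with an adjusted p of 0.0324. The cyclin of the G2 and M phases encoded by Ccnb1 went from -1.72, -2.0 and -2.17 to 2.36, 2.44 and -0.44, a log2 fold change of 3.42 (adjusted p = 0.0334). Its partner kinase Cdk1 had levels of -4.59, -4.50 and -4.58 before challenge, where its probe was not well above background on any array, and of 1.24, 1.12 and -1.72 at day 3. Cdk1 was therefore at least 23.5-fold higher (adjusted p = 0.0304), a bound set against the dimmest signal well above background on each array. Top2a, which untangles replicated DNA, went from -4.36, -3.11 and -4.01 to 1.45, 1.28 and -1.41, or 19.3-fold (adjusted p = 0.0304). In each of these genes the groups did not overlap and replicate 4 lay lowest of the day 3 arrays.

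Kif20a, a kinesin needed for the final separation of daughter cells, showed the largest rise of the list among genes measurable on every WT array. Its levels were -3.31, -2.99 and -2.98 before and 2.70, 2.87 and 0.17 at day 3, a log2 fold change of 5.01 (SE 0.67) or 32.2-fold (adjusted p = 0.0279). Rises of similar size were seen in Spc25 of the kinetochore (25.1-fold), cyclin A2 (Ccna2, 24.4-fold) and the spindle midzone protein Prc1 (23.8-fold). Birc5 (survivin) rose 16.9-fold, the spindle assembly factor Tpx2 17.7-fold and Ccnb2 16.8-fold. The transcription factor Foxm1, which drives many genes of this list, went from -2.53, -2.89 and -3.57 to 0.65, 0.64 and -1.95, or 6.87-fold (adjusted p = 0.0454). Other genes of cell division were among the 15 largest rises measurable on all 6 arrays. They included Cdca3 (23.5-fold), Cdca5, which stabilises sister chromatid cohesion (18.6-fold), Cdca8 of the chromosomal passenger complex (18.2-fold) and the kinesin Kif22 (17.6-fold). Of the genes with only a bound, Shcbp1 was at least 31.3-fold, Melk at least 19.7-fold and Ska1, a kinetochore protein, at least 18.8-fold higher. The smallest called rise of the list was that of Anln (anillin), at 2.25-fold, and in this gene replicate 4 (4.59) lay between the other day 3 arrays (4.51 and 4.71). Each of the genes in this paragraph had an adjusted p of 0.0454 or less.

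**Figure D2:**
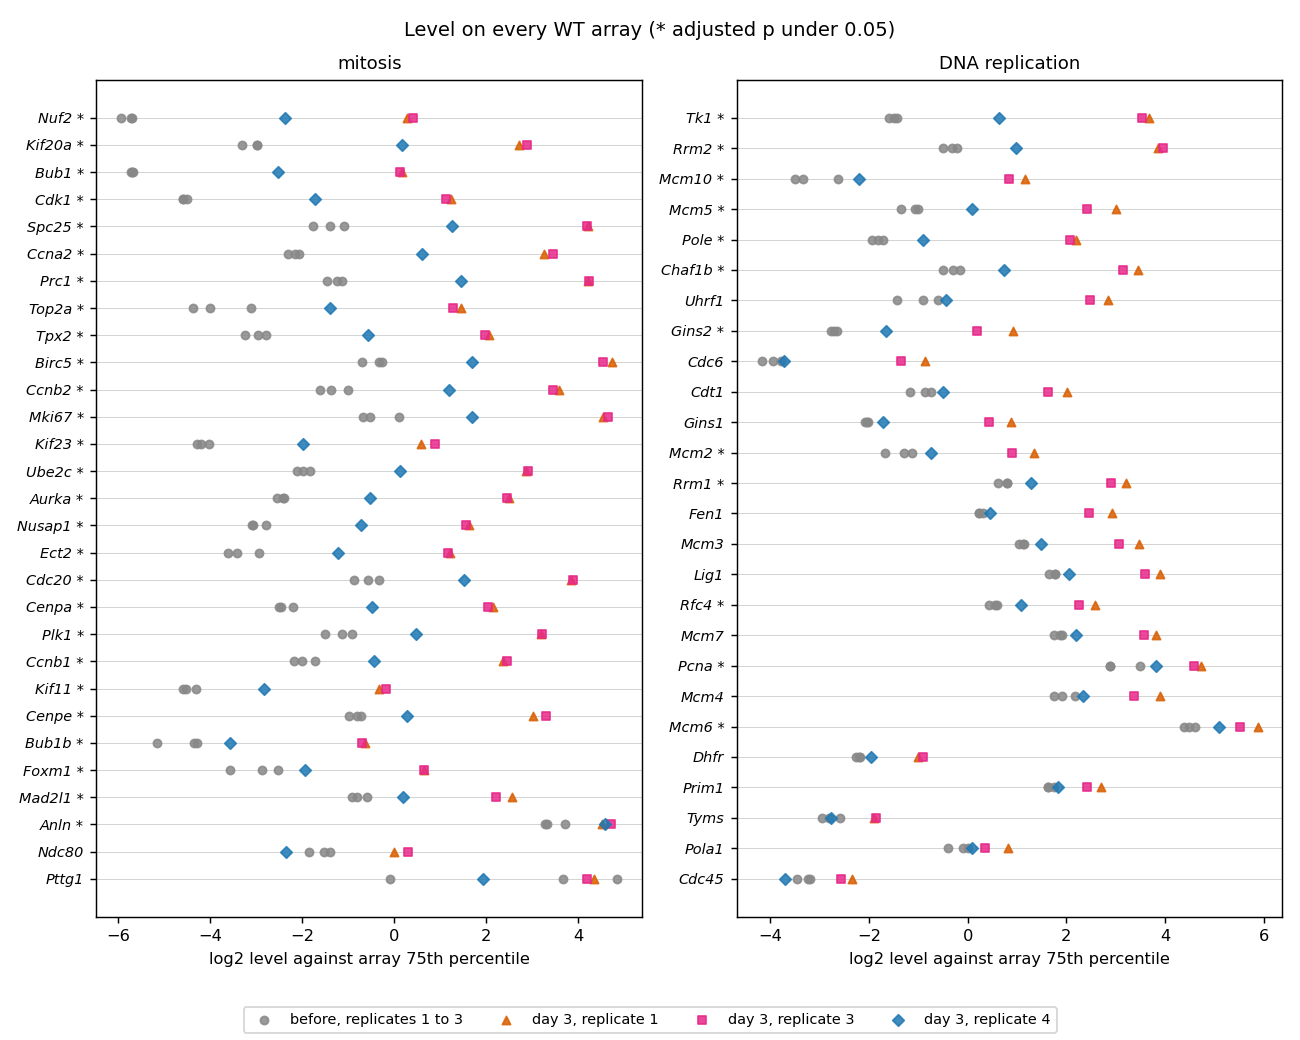
Levels of the measured mitosis genes (left) and DNA replication genes (right) on each WT array, in log2 units against the 75th percentile of the array, with genes ordered by log2 fold change and an asterisk at an adjusted p under 0.05. Grey circles are the 3 arrays before challenge and coloured symbols the day 3 arrays. Replicate 4 (blue diamonds) lies between the arrays before challenge and the other day 3 arrays in most of both lists.

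Genes that copy DNA went the same way with smaller changes. Of 26 measured DNA replication genes, 12 rose and 0 fell, against 3.58% and 1.09% of all genes, and in 24 all day 3 arrays were above all arrays before, against 20.7%. The median log2 fold change was 1.70. The median over the list stood 2.57, 2.17 and 0.48 above the start on the 3 day 3 arrays, so that replicate 4 was much lower here than in mitosis. Without replicate 4, 25 of the 26 were called higher, against 9.96% of all genes. Tk1, the thymidine kinase of dividing cells, had levels of -1.60, -1.42 and -1.49 before and of 3.68, 3.53 and 0.64 at day 3 (17.4-fold, adjusted p = 0.0322). Rrm2, the regulated subunit of ribonucleotide reductase, went from -0.51, -0.22 and -0.31 to 3.87, 3.96 and 0.97, or 9.70-fold (adjusted p = 0.0334). Gins2, a subunit of the replicative helicase, rose 5.77-fold and the histone chaperone subunit Chaf1b 6.83-fold. Of the helicase ring, Mcm2 rose 3.65-fold, Mcm5 7.89-fold and Mcm6 2.01-fold, whereas Mcm3 (adjusted p = 0.0674), Mcm4 (0.0706) and Mcm7 (0.0565) missed the threshold with no overlap between groups. The sliding clamp Pcna went from 2.89, 2.90 and 3.49 to 4.73, 4.58 and 3.83 (2.44-fold, adjusted p = 0.0372).

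Promoters of 21 genes of the list were searched for the E2F-type letters TTTGGCGC and GGCGGGAA, which were each found in 5 of 26 promoters (19.2%), against 0.514% and 2.19% of all promoters. Of 16 measured genes of G1 and of the E2F family, 4 rose, against 3.58% of all genes. These were cyclin E1 (Ccne1, 12.3-fold by its brightest probe), the repressor E2f8 (at least 10.2-fold), the inhibitor Cdkn2c (2.76-fold) and the retinoblastoma relative Rbl1 (4.89-fold). Probes disagreed for Ccne1, with log2 fold changes of 3.62 and 0.14. The D-type cyclins, which link growth signals to the cycle, did not pass. Ccnd1 had levels of 0.72, 1.39 and 1.41 before and of 2.12, 2.18 and 1.81 at day 3 (adjusted p = 0.0861), Ccnd2 a log2 fold change of -0.26 (0.56) and Ccnd3 of 0.21 (0.327). E2f1 itself went from -1.0, -0.92 and -1.13 to 1.27, 1.07 and -0.60 (adjusted p = 0.0589), and Myc from -2.32, -2.31 and -2.23 to -0.18, -0.31 and -2.15 (adjusted p = 0.166), with replicate 4 close to the arrays before challenge.

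Some collagen genes rose. Of 18 measured collagen chains 5 rose and 0 fell, against 3.58% and 1.09% of all genes, and all day 3 arrays were above all before in 11, against 20.7%. The median log2 fold change was 0.63. The list medians on the 3 day 3 arrays were 0.61, 0.81 and 0.42. With quantile normalization 2 of the 18 were called higher, against 437 of all 22765 genes. With the 75th percentile over probes that every array measured well above background, 1 was called higher, against 333 of all genes. Col3a1, a chain of fibrillar collagen that is abundant in the vessel wall, had levels of 7.5, 7.57 and 7.60 before and of 8.42, 8.40 and 8.06 at day 3 (1.67-fold, adjusted p = 0.0477). Col5a1, which starts fibril assembly, rose 1.86-fold (adjusted p = 0.0363), Col6a3 of microfibrillar collagen 2.89-fold (0.0409) and Col8a1, a short chain collagen of remodelling vessels, 6.88-fold (0.0353). Col8a1 went from -2.14, -1.47 and -2.36 to 1.96, 1.38 and -0.96. Col11a1 had levels of -6.45, -6.55 and -5.69 before, where it was not well above background, and of -1.21, -2.02 and -5.15 at day 3, where it was so on 2 arrays (adjusted p = 0.0416). The chains of type I collagen did not pass. Col1a1 went from 7.06, 7.01 and 7.02 to 7.73, 7.98 and 7.27 without overlap (1.55-fold, adjusted p = 0.127), and Col1a2 had a log2 fold change of 0.30 (adjusted p = 0.293).

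Of 20 measured genes of elastic fibres and lysyl oxidases, which include the target of BAPN, 4 rose and 1 fell, against 3.58% and 1.09% of all genes. The median log2 fold change was 0.46. With quantile normalization 1 gene of the list was called higher and 0 lower, against 437 and 178 of all 22765 genes. With the 75th percentile over probes that every array measured well above background, it was 1 and 1, against 333 and 370. Lox, the lysyl oxidase that BAPN inhibits, had levels of 1.59, 1.73 and 1.91 before and of 3.64, 3.51 and 2.55 at day 3. All day 3 arrays were higher, by 2.81-fold on average (log2 fold change 1.49, SE 0.34, adjusted p = 0.0388). Its relative Loxl2 went from 0.98, 1.15 and 1.19 to 2.65, 2.72 and 2.01 (2.56-fold, adjusted p = 0.0310). Loxl1, Loxl3 and Loxl4 did not pass (adjusted p = 0.197, 0.783 and 0.0596). Eln, which encodes tropoelastin, missed the threshold without overlap, at 4.92, 5.23 and 5.49 before and 6.93, 6.55 and 6.27 at day 3 (2.58-fold, adjusted p = 0.0553). Fbn1 (fibrillin-1), whose microfibrils carry elastin, rose 2.0-fold (adjusted p = 0.0397) and Ltbp2, which binds them, 2.09-fold (0.0400). Ltbp4, which guides elastin onto microfibrils and binds latent TGF-beta, fell. Its levels were 7.74, 7.85 and 7.61 before and 6.22, 6.46 and 7.37 at day 3 (log2 fold change -1.05, SE 0.26, adjusted p = 0.0453), with the smallest drop on replicate 4.

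Among 14 measured enzymes that modify or process collagen, 3 rose, against 3.58% of all genes, and all day 3 arrays were above all before in 11, against 20.7%. The list medians on the 3 day 3 arrays were 0.68, 0.65 and 0.46. The lysyl hydroxylases Plod1 and Plod3 rose 1.76-fold and 1.79-fold and the procollagen C-proteinase enhancer Pcolce 1.58-fold, with adjusted p of 0.0468, 0.0391 and 0.0393. A dimmer probe of Plod1 gave a log2 fold change of 0.34 (limma, unadjusted p = 0.127), against 0.81 by the brightest. The Plod1 call was lost in 14 of 19 alternatives. Pcolce was about even across the day 3 arrays, with levels of 6.90, 6.77 and 6.97 before and of 7.56, 7.58 and 7.48 at day 3. The collagen chaperone gene Serpinh1 went from 5.94, 5.91 and 6.22 to 6.93, 6.93 and 6.44 (adjusted p = 0.0924).

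**Figure D3:**
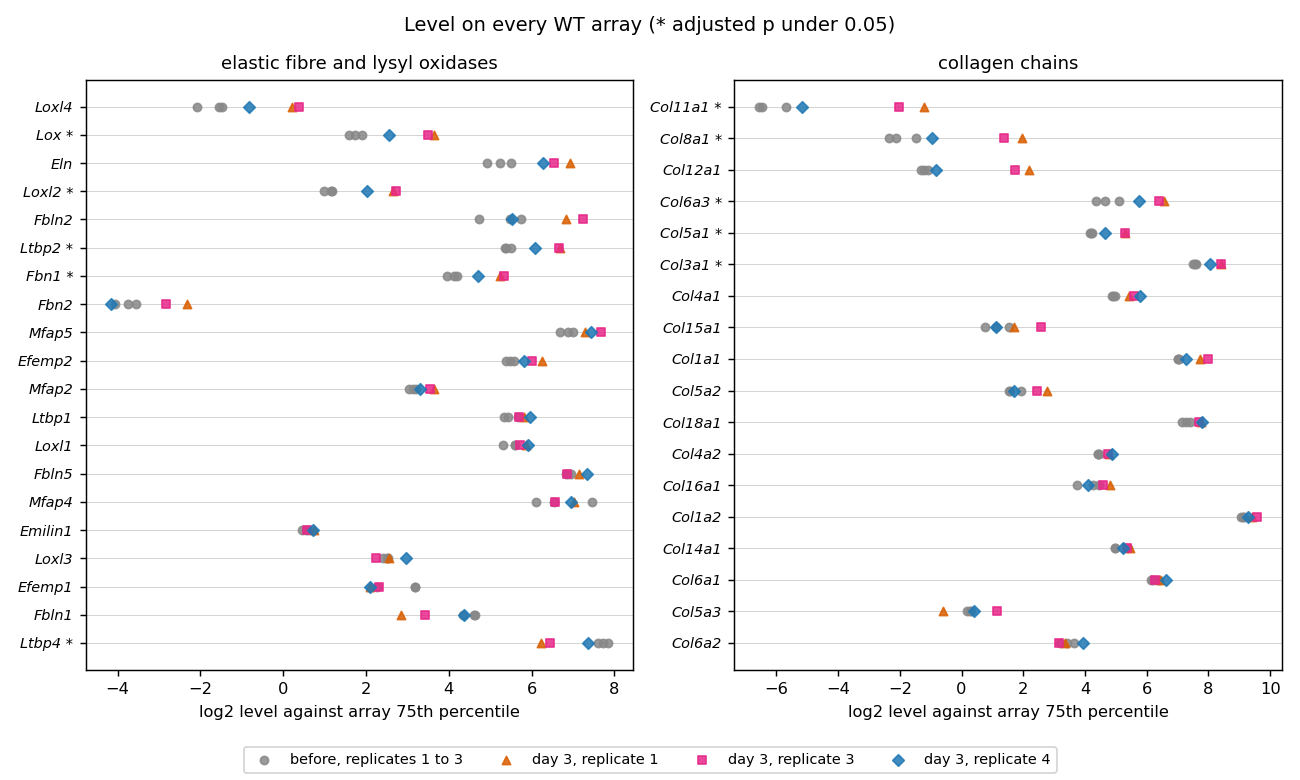
Levels of the measured genes of elastic fibres and lysyl oxidases (left) and of collagen chains (right) on each WT array, in log2 units against the 75th percentile of the array, with genes ordered by log2 fold change and an asterisk at an adjusted p under 0.05. Grey circles are arrays before challenge and coloured symbols day 3 arrays. Lox and Loxl2 are higher on all day 3 arrays, and Ltbp4 is lower on all of them, least so on replicate 4.

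Of 20 measured genes of matricellular proteins and proteoglycans, a list that also holds fibronectin and hyaluronan synthases, 4 rose and 0 fell, against 3.58% and 1.09% of all genes. Spp1 (osteopontin) was not well above background on any array before challenge, at -5.30, -4.18 and -5.19, and had levels of 2.66, 1.79 and -2.25 at day 3, or at least 32.5-fold higher (adjusted p = 0.0348). Its probe lies at chr5:104868502-104868561 (mm9). Cthrc1, which is secreted by activated fibroblasts and injured arteries, went from -3.27, -3.21 and -2.91 to 3.01, 2.58 and -1.51 (22.5-fold, adjusted p = 0.0334). Replicate 4 was far below the other day 3 arrays in both of these genes, though above all arrays before. Fn1 (fibronectin) and Postn (periostin) were more even. Fn1 went from 6.83, 7.02 and 7.31 to 8.23, 8.27 and 7.83 (2.08-fold, adjusted p = 0.0333), and Postn from 5.82, 5.80 and 6.00 to 7.35, 6.96 and 7.23 (2.47-fold, adjusted p = 0.0453). Thbs1 (thrombospondin-1) had levels of 0.58, 1.34 and 0.68 before and of 5.32, 5.12 and 1.77 at day 3 and just missed the threshold (9.20-fold, adjusted p = 0.0502). Tnc (tenascin-C) did not pass either by its brightest probe (5.12-fold, adjusted p = 0.0655). A dimmer probe of Tnc gave a log2 fold change of 2.42, against 2.36 by the brightest. In a limma fit of all kept probes the unadjusted p was 0.000484 for the dimmer probe and 0.00493 for the brightest, so that the miss depended on the probe.

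Of 19 measured matrix proteases and inhibitors, 4 rose and 0 fell, against 3.58% and 1.09% of all genes. Timp1, an inhibitor of matrix metalloproteinases, went from 3.04, 3.15 and 3.23 to 7.62, 7.53 and 4.64, an 11.0-fold rise (log2 fold change 3.46, SE 0.66, adjusted p = 0.0329). Mmp3 (stromelysin-1) had levels of 1.82, 1.74 and 2.59 before and of 4.37, 4.62 and 3.68 at day 3 (4.51-fold, adjusted p = 0.0304). Mmp19 rose 3.12-fold and Plau, the urokinase that activates plasminogen, 3.79-fold (adjusted p = 0.0475 for both). Mmp9, a gelatinase often studied in aneurysm, had levels of -3.0, -2.35 and -3.32 before and of -6.22, -6.10 and -3.72 at day 3, where only 1 day 3 array was well above background (adjusted p = 0.0545). Mmp2 did not pass, with a log2 fold change of -0.02 (adjusted p = 0.967).

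Cytokine genes were higher on day 3 replicates 1 and 3 than on replicate 4. Of 18 measured cytokines and chemokines 2 rose, Il6 and Ccl8, against 3.58% of all genes. The list medians on the 3 day 3 arrays were 2.08, 1.64 and -0.09, the last of which was 0.25 with arrays set to their medians, where all genes stood at 0.40 on that array. With normexp correction the medians were 1.18, 0.79 and -0.19. On replicates 1, 3 and 4 there were 14, 15 and 5 genes above all arrays before, against 38.7%, 37.4% and 40.8% of all genes. Without replicate 4, 9 were called higher, against 9.96% of all genes. Il6 (interleukin-6) had levels of -5.97, -6.48 and -6.54 before, none of them well above background, and of 2.66, 3.51 and -3.41 at day 3. It was at least 38.3-fold higher (adjusted p = 0.0358), the largest bound of any called gene, and its probe lies at chr5:30346367-30346426 (mm9). Ccl8, a chemokine for monocytes, went from -0.76, -0.48 and -1.53 to 2.57, 1.91 and 0.55 (6.06-fold, adjusted p = 0.0475). Ccl2 and Ccl7, which also attract monocytes, were high on 2 arrays. Ccl2 had levels of -1.14, -1.13 and -0.63 before and of 4.34, 5.15 and -0.02 at day 3 (adjusted p = 0.0639), and Ccl7 of -2.04, -1.63 and -0.88 before and of 4.11, 4.01 and -0.30 at day 3 (0.0630). Il1b did not pass, at -3.35, -4.08 and -3.91 before and -1.33, -1.99 and -4.88 at day 3 (adjusted p = 0.544), and Cxcl10, an interferon-induced chemokine, was below its levels before on replicate 4 (-5.74) while at 0.34 and 0.48 on the others (0.242).

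Interleukin-6 signals through gp130 (Il6st), Jak kinases and Stat3, and Socs3 is a feedback inhibitor that Stat3 induces. Of 17 measured genes of this pathway 0 passed the adjusted threshold (limma, 4 at an unadjusted p under 0.05), and the list medians were 0.08, -0.03 and 0.12, with signs that changed with the scaling. Socs3 had levels of 0.30, 0.32 and 0.75 before and of 2.21, 2.30 and 0.64 at day 3, so that replicate 4 lay among the arrays before challenge (log2 fold change 1.26, SE 0.54, adjusted p = 0.163). Without replicate 4, Socs3 and the oncostatin M receptor Osmr were called higher and Il11ra1 lower. These are 2 and 1 of the 17 genes, against 9.96% and 5.97% of all genes. Stat3 went from 3.96, 3.91 and 3.82 to 4.22, 4.21 and 3.77 (adjusted p = 0.673). The receptor subunits Il6ra and Il6st did not pass, with log2 fold changes of -0.15 and -0.19. The letters TTCCNGGAA of a Stat site were found in 1 of 18 promoters of 15 genes of the list (5.56%), that of Cish, against 1.15% of all promoters.

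Interferon-stimulated genes were also higher on day 3 replicates 1 and 3 than on replicate 4. Of 16 measured genes 0 passed the adjusted threshold (limma, 2 at an unadjusted p under 0.05). Their list medians were 1.68, 1.33 and -0.17 at day 3, the last of which was 0.17 with arrays set to their medians, while the arrays before challenge ranged from -0.66 to 0.62. There were 14, 15 and 2 genes above all arrays before on replicates 1, 3 and 4, against 38.7%, 37.4% and 40.8% of all genes. Isg15, a ubiquitin-like protein, had levels of 0.63, 0.93 and 0.35 before and of 2.50, 2.39 and 0.16 at day 3 (adjusted p = 0.379). Irf7 overlapped between groups (0.534). Of 12 measured complement genes 1 rose, against 3.58% of all genes. This was C3ar1, the receptor of the C3a fragment (2.46-fold, adjusted p = 0.0475), from -2.10, -2.11 and -2.10 to -0.11, -0.56 and -1.74. C3 itself stayed between 6.43 and 6.73 on all 6 arrays (adjusted p = 0.896), and C1qa, a subunit of the initiating complex made by macrophages, went from 1.51, 1.45 and 1.52 to 3.50, 2.72 and 2.16 without passing (0.0762).

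Leukocyte markers were measured beside these groups. In RNA of whole tissue, more cells of a type and more RNA per cell cannot be told apart. Of 20 measured monocyte and macrophage markers 2 rose and 0 fell, against 3.58% and 1.09% of all genes. The 2 were Lgals3 (galectin-3, 2.28-fold, adjusted p = 0.0329) and the adaptor Tyrobp (2.77-fold, 0.0483). Tyrobp had levels of 2.37, 2.26 and 2.28 before and of 4.50, 3.96 and 2.85 at day 3, and Lgals3 of 2.95, 2.97 and 3.18 before and of 4.56, 4.29 and 3.82 at day 3. The summed signal of 19 of these markers, in multiples of the 75th percentile, was 70.65 to 73.71 before challenge and 167.05, 147.6 and 74.15 on replicates 1, 3 and 4 at day 3. Itgam was left out of this sum after its values were seen. With Itgam the sum was 227 to 276 before and 317, 359 and 197 at day 3. On replicate 4 the sum was thus just above all arrays before without Itgam and below all of them with it, and on replicates 1 and 3 it was above all arrays before in both. Of the macrophage markers, 16, 18 and 10 were above all arrays before on the 3 day 3 arrays, against 38.7%, 37.4% and 40.8% of all genes, so that the share on replicate 4 (50%) was near that of all genes. The part of these cells in the cytokine and complement values was not tested.

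Of 7 measured neutrophil markers 1 rose, against 3.58% of all genes. This was Mpo (myeloperoxidase), by at least 2.11-fold (adjusted p = 0.0431). S100a8 and S100a9 were highest on replicate 4, at -0.71 and 1.32, and overlapped between groups. Of 11 measured T and B cell markers 2 fell and 0 rose, against 1.09% and 3.58% of all genes. The list medians were -1.22, -1.16 and -1.35, so that replicate 4 was not closer to the start here. Cd3d, a chain of the T cell receptor complex, had levels of -1.81, -0.83 and -1.93 before and of -3.78, -4.18 and -4.17 at day 3 (log2 fold change -2.52, SE 0.50, adjusted p = 0.0333). Cd3g went from -2.25, -1.75 and -2.67 to -4.08, -4.06 and -4.44 (-1.97, 0.0350). Both were well above background on only 1 array at day 3. They were thus kept without such a signal on every day 3 array, which favours a fall. The brighter Cd3e of the same complex did not pass, at 0.25, 0.30 and -0.05 before and 0.09, 0.40 and 0.14 at day 3 (adjusted p = 0.922). The summed signal of the 11 markers was 5.81 to 9.69 before and 4.58 to 6.53 at day 3.

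Most genes of the contractile apparatus were lower on 2 day 3 arrays, and most were not on the third. Of 21 measured genes of the contractile apparatus 0 passed the adjusted threshold in either direction (limma, 3 at an unadjusted p under 0.05, each lower). The list medians were -0.57 and -0.85 on day 3 replicates 1 and 3 and 0.26 on replicate 4. Under the other scalings they stayed below 0 on the former and between 0.07 and 0.61 on the latter. On replicate 1, 20 of the 21 genes were below all arrays before, on replicate 3 it was 18, and on replicate 4 it was 4, with 15 above all arrays before (9 to 21 under the other scalings). Over all genes, 40.2%, 36.1% and 33.5% were below on the 3 arrays and 40.8% above on replicate 4. In 13 genes replicates 1 and 3 were below and replicate 4 above every array before challenge, against 1209 of all 22765 genes. Myh11, the myosin heavy chain of smooth muscle, was among the few without overlap, at 7.22, 7.21 and 7.06 before and 5.62, 5.99 and 6.90 at day 3 (log2 fold change -1.0, SE 0.33, adjusted p = 0.0917). Acta2 (smooth muscle actin) overlapped, at 10.02, 9.81 and 9.80 before and 9.55, 9.80 and 9.58 at day 3 (adjusted p = 0.469), as did Tagln and Cnn1 (0.687 and 0.658).

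Regulators of these genes gave the same order of arrays. Myocd (myocardin), the coactivator of smooth muscle genes, went from 3.62, 3.28 and 3.19 to 2.58, 2.34 and 3.33 (adjusted p = 0.176), and its partner Srf from 2.79, 2.82 and 3.04 to 2.01, 1.95 and 3.19 (0.333). Synpo2, an actin-bundling protein, had levels of 5.88, 5.94 and 6.06 before and of 4.13, 3.92 and 6.14 at day 3 (0.143). Without replicate 4, 7 of the 21 were called lower, namely Myh11, Mylk, Lmod1, Synpo2, Myocd, Srf and Ppp1r14a, against 5.97% of all genes, and these calls rest on 2 arrays at day 3. The CArG box, which binds Srf, was found in 2 of 19 promoters of 16 genes of the list (10.5%), those of Myl9 and Srf, against 1.63% of all promoters. Promoters of the remaining genes of the list, Myh11 and Tagln among them, were not searched. The summed signal of the 8 smooth muscle markers was 2692.03 to 2981.44 before challenge and 2108.71, 2457.17 and 2657.98 at day 3. Unlike the list median of the contractile apparatus, this sum was lower on replicate 4 than on every array before. Of 17 measured genes of ion channels and calcium handling 0 passed as well (limma, 6 at an unadjusted p under 0.05, each lower). Their list medians were -0.72, -0.97 and 0.02, the last with a sign that changed with the scaling. Without replicate 4, 7 were called lower, against 5.97% of all genes. The L-type calcium channel gene Cacna1c, measured by a probe under its synonym D930026N18Rik, went from 3.12, 3.25 and 3.27 to 2.49, 2.46 and 3.25 (adjusted p = 0.170).

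**Figure D4:**
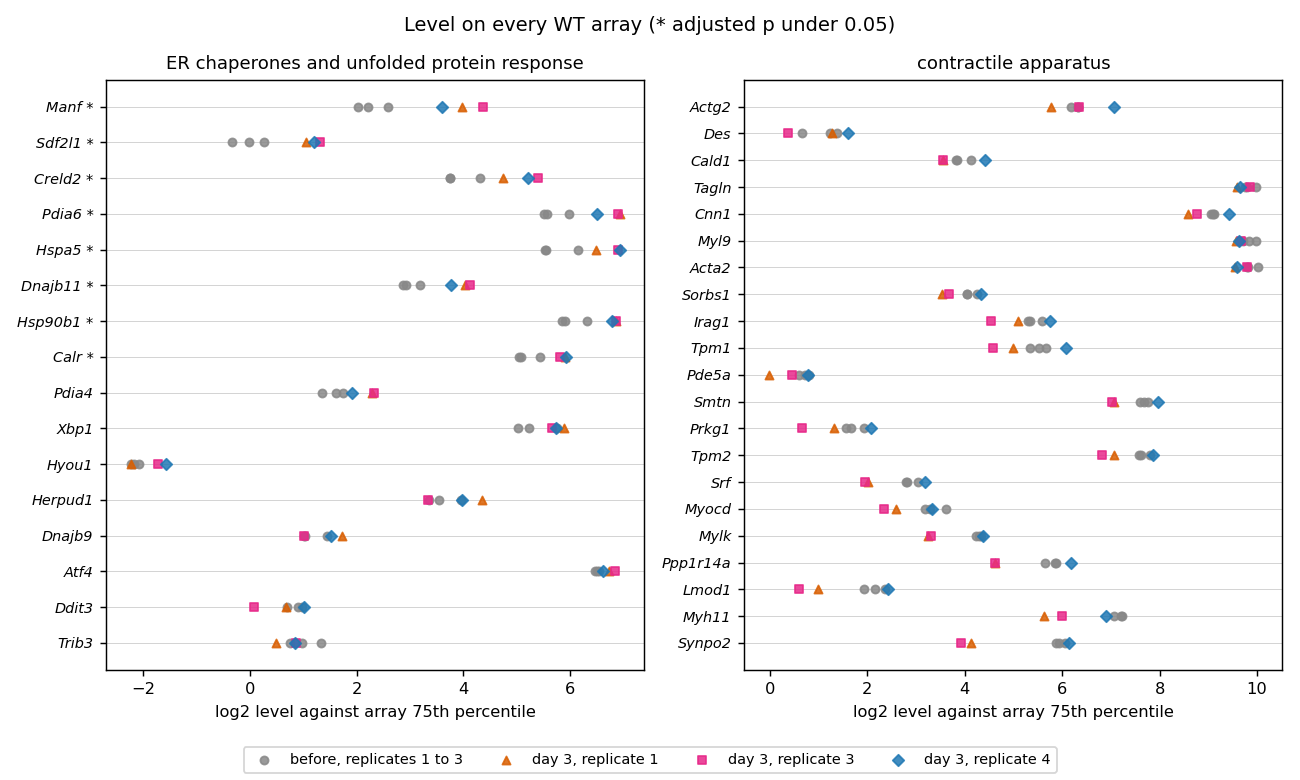
Levels of the measured genes of endoplasmic reticulum chaperones and the unfolded protein response (left) and of the contractile apparatus (right) on each WT array, in log2 units against the 75th percentile of the array, with genes ordered by log2 fold change and an asterisk at an adjusted p under 0.05. Grey circles are arrays before challenge and coloured symbols day 3 arrays. On the left the 3 day 3 arrays lie together above the start in the 8 called genes, and on the right replicate 4 lies apart from replicates 1 and 3 in most genes.

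Chaperones of the endoplasmic reticulum (ER), which fold secreted proteins such as collagen, were higher by similar amounts on the 3 day 3 arrays. Of 16 measured genes of this list 8 rose and 0 fell, against 3.58% and 1.09% of all genes, and the list medians were 0.72, 0.68 and 0.66. With quantile normalization 3 of the 16 were called higher, against 437 of all 22765 genes, and the list medians were 0.44, 0.49 and 0.52. With the 75th percentile over probes that every array measured well above background, 4 were called higher, against 333 of all genes. Manf, a secreted ER stress protein, had levels of 2.22, 2.03 and 2.59 before and of 3.98, 4.37 and 3.61 at day 3 (3.26-fold, log2 fold change 1.71, SE 0.31, adjusted p = 0.0324). Hspa5 (BiP), the master chaperone of the compartment, went from 5.55, 5.53 and 6.15 to 6.49, 6.90 and 6.93 (2.05-fold, adjusted p = 0.0421), and replicate 4 was its highest array. Hsp90b1 (Grp94) went from 5.86, 5.91 and 6.31 to 6.86, 6.87 and 6.78 (1.75-fold, 0.0334). Dnajb11, a cochaperone of BiP, rose 1.98-fold (adjusted p = 0.0304), the disulfide isomerase Pdia6 2.14-fold (0.0352), Sdf2l1 2.33-fold (0.0393), Creld2 2.27-fold (0.0478) and calreticulin (Calr) 1.61-fold (0.0431). Genes of the stress arm that leads to cell death did not pass. Ddit3 (CHOP) had a log2 fold change of -0.27 (adjusted p = 0.508), Trib3 of -0.28 (0.510) and Atf4 of 0.23 (0.507). As a share of the mean change on replicates 1 and 3, the change on replicate 4 had a median of 95.8% over the 8 called ER genes, with 4 at or above the mean of the others. It was 46.5% over the 27 called mitosis genes, of which 0 reached that mean, and 41.5% over the 5 called collagen chains. All these genes were called with replicate 4 in the fit, and a gene with a small change passes more readily where the arrays are even, so that the call in part sets these shares and they are a description.

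The ER stress element, a CCAAT box and the letters CCACG held apart by a fixed spacer, is the known binding site of factors of the unfolded protein response. It was found in 5 of 14 promoters of 14 genes of the list (35.7%), against 39 of all 32851 (0.119%). It contains CCAAT and so overlaps the CCAAT search above. The 5 genes were Calr, Creld2, Hsp90b1, Hspa5 and Pdia6, each of which rose. The 150 bases before the start are shown for 4 of them, to set the element beside the measured rises, with the element in capitals on either strand (RefSeq, GRCm38.p6). Hspa5 is at chr2:34771940-34772089 (plus strand), Hsp90b1 at chr10:86705445-86705594 (minus strand), Creld2 at chr15:88819496-88819645 (plus strand) and Pdia6 at chr12:17266439-17266588 (plus strand).
Hspa5: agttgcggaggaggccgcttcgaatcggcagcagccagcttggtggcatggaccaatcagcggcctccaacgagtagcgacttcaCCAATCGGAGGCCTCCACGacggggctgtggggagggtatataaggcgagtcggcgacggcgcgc
Hsp90b1: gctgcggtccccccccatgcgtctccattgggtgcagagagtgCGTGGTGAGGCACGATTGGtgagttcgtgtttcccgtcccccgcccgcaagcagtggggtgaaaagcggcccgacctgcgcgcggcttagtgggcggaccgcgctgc
Creld2: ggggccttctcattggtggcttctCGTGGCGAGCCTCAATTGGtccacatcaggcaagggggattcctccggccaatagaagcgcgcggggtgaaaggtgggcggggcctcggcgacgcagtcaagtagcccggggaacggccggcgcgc
Pdia6: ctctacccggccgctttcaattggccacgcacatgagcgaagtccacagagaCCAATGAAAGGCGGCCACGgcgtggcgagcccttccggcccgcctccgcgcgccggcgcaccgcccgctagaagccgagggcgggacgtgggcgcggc

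Growth factor genes gave 4 rises and 1 fall among 20 measured, against 3.58% and 1.09% of all genes. Igf1 (insulin-like growth factor 1) had levels of 2.25, 2.63 and 1.92 before and of 5.16, 4.98 and 3.31 at day 3 (4.65-fold, adjusted p = 0.0324), though its probes gave log2 fold changes from 0.70 to 2.30. Ereg (epiregulin), a ligand of the EGF receptor, went from 0.12, 0.08 and 0.73 to 1.92, 1.99 and 1.37 (2.73-fold, 0.0324). Pdgfc, a ligand of PDGF receptors, rose 2.58-fold (adjusted p = 0.0392), and the stress-induced factor Gdf15 2.01-fold (0.0453). Igfbp5, which binds insulin-like growth factors, fell, from 5.87, 6.11 and 5.47 to 4.44, 5.01 and 4.95 (log2 fold change -1.02, SE 0.25, adjusted p = 0.0442). Among 16 genes of the mTOR and Akt pathway, which couples growth signals to protein synthesis, 1 rose, against 3.58% of all genes. This was Eif4ebp1, an inhibitor of translation that mTOR phosphorylates (2.13-fold, adjusted p = 0.0315), from 3.92, 3.89 and 4.06 to 5.19, 5.06 and 4.89. Mtor and Akt2 did not pass (0.665 and 0.878). Of 22 measured genes of TGF-beta and BMP signalling and 17 of angiotensin and vasoactive signalling 0 passed (limma, 6 and 3 at an unadjusted p under 0.05). Tgfb1 went from -0.25, -0.10 and -0.46 to 0.54, 0.28 and -0.09 (adjusted p = 0.253). Agtr1a, the main receptor of AngII in mouse vessels, had levels of -0.73, -0.80 and -0.46 before and of -2.06, -1.40 and -0.60 at day 3 (0.428).

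Genes of metabolism gave moderate changes. Of 16 measured genes of glycolysis and hypoxia 5 rose, against 3.58% of all genes, and these encode enzymes of the later steps of glycolysis and of lactate formation. Eno1 (enolase) went from 5.22, 5.27 and 5.26 to 6.60, 6.45 and 6.13 (2.21-fold, adjusted p = 0.0324), Pgk1 rose 2.43-fold (0.0334), Gapdh 1.75-fold (0.0329), Pgam1 1.57-fold (0.0493) and Ldha 2.10-fold (0.0373). Hk2 and the glucose transporter Slc2a1 did not pass (adjusted p = 0.639 and 0.676), nor did the hypoxia targets Car9 and Egln3 (0.726 and 0.885). At an unadjusted p under 0.05 (limma), 2 genes of the list were lower. With quantile normalization 2 of the 16 were called higher, against 437 of all 22765 genes. With the 75th percentile over probes that every array measured well above background, 2 were called higher, against 333 of all genes. Without replicate 4, 5 were called higher and 2, Pfkp and Adm, lower, against 9.96% and 5.97% of all genes. Of 18 measured genes of oxidative phosphorylation, 1 rose, a share near the 3.58% of all genes. This was Cycs (cytochrome c, 1.92-fold, adjusted p = 0.0334). In 11 all day 3 arrays were above all before, against 20.7% of all genes. The list medians on the 3 day 3 arrays were 0.38, 0.35 and 0.38, and 0.08, 0.12 and 0.16 with quantile normalization. Of 16 genes of cholesterol and fatty acid synthesis 1 rose, against 3.58% of all genes. This was Fdps, which makes farnesyl pyrophosphate, from 0.37, 1.01 and 1.82 to 4.13, 3.57 and 2.53 (5.09-fold, adjusted p = 0.0363). In 9 of the 16 all day 3 arrays were above all before, against 20.7% of all genes. Of 12 nucleolar genes 1 rose, against 3.58% of all genes. This was Bop1 of ribosome assembly (2.08-fold, adjusted p = 0.0374), and Ncl and Npm1 did not pass by their brightest probes (0.495 and 0.245). The other probes of Npm1 gave log2 fold changes from 0.608 to 1.238, against 0.325 by the brightest. Each of these others had an unadjusted p under 0.05 (limma). Probes disagreed for Ncl, with log2 fold changes of 0.231 and -0.656.

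Esm1 (endocan), a proteoglycan secreted by activated endothelial cells, showed the largest rise of all called genes measurable on every WT array. Its probe lies at chr13:114008204-114008263 (mm9). The levels were -2.52, -0.32 and -1.38 before and 5.09, 4.99 and 1.08 at day 3, a log2 fold change of 5.12 (SE 0.97) or 34.9-fold (adjusted p = 0.0329). Of 12 genes of endothelial activation and sprouting 2 rose, Esm1 and Pgf (placental growth factor), against 3.58% of all genes. Pgf went from -2.16, -1.76 and -1.74 to -0.56, -0.23 and -1.13 (2.37-fold, adjusted p = 0.0363). The adhesion molecule gene Vcam1 did not pass, at 2.71, 2.92 and 3.20 before and 4.90, 4.26 and 3.22 at day 3 (0.0840). Of 12 endothelial markers 0 passed (limma, 0 at an unadjusted p under 0.05 as well), and their summed signal was 95.2 to 98.31 before and 110.46 to 127.6 at day 3. Of the lists known to respond to handling or to the time of day, 0 genes passed the adjusted threshold, whether 15 immediate early genes (limma, 4 at an unadjusted p under 0.05), 16 circadian genes (1) or 9 heat shock chaperones (2). Of the last, Hspa1a, an inducible chaperone, had levels of 2.65, 2.82 and 2.01 before and of 0.90, -0.74 and 0.65 at day 3, lower on all day 3 arrays and 4.67-fold on average (unadjusted p = 0.00492 and adjusted p = 0.0643 in limma), and it was called lower without replicate 4. The circadian list medians were 0.55, -0.62 and -0.32 on the 3 day 3 arrays, the last of which lay between -0.51 and 0.03 under the other scalings, and Arntl (Bmal1), the core activator of the clock, was -1.35 on replicate 1 and 1.19 and 1.35 on the others, against 0.73, 1.44 and 1.60 before (adjusted p = 0.588). The hour of sampling is not given in the sources used here.

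The largest falls were smaller than the largest rises. Among genes measurable on every WT array, 547 were eligible as rises and 83 as falls under the rule for named genes, and the largest fall was 4.55-fold. This was Gprasp2, which sorts G protein-coupled receptors for degradation, at 2.70, 2.76 and 2.70 before and -0.01, -0.04 and 1.64 at day 3 (log2 fold change -2.19, SE 0.45, adjusted p = 0.0342). Gprasp1, which lies nearby on chromosome X, went from 3.29, 3.34 and 3.29 to 1.05, 1.02 and 2.22 (-1.88, 0.0304). The transcription factor Rfx2 fell by 2.01 on the log2 scale, the pyrimidine-degrading enzyme Upb1 by 1.87, the Tead cofactor Vgll2 by 1.84, the remodeller Chd5 by 1.35, the mitochondrial enzyme Dhtkd1 by 1.34, the netrin relative Ntng1 by 1.29 and Mreg by 1.27. Vgll2 was lowest on replicate 4, at -0.76, -1.86 and -0.86 before and -3.16, -2.61 and -3.25 at day 3 (adjusted p = 0.0334). The remaining 6 of the 15 largest falls were probes that carry clone names. RefSeq lists A930001N09Rik as Crebrf, a regulator of the unfolded protein response, at -1.58, -1.80 and -1.79 before and -3.70, -3.59 and -2.54 at day 3 (log2 fold change -1.56, adjusted p = 0.0329). It lists A730069N07Rik (-1.42) as Dlc1 and 2900055J20Rik (-1.41) as Kctd16, and the probes named Dlc1 and Kctd16 did not pass themselves (adjusted p = 0.403 and 0.0618). The last 3 were 4933407P14Rik, now Sppl2c (-1.38), 1700029J07Rik (-1.69) and 5031434O11Rik (-1.30).

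**Figure D5:**
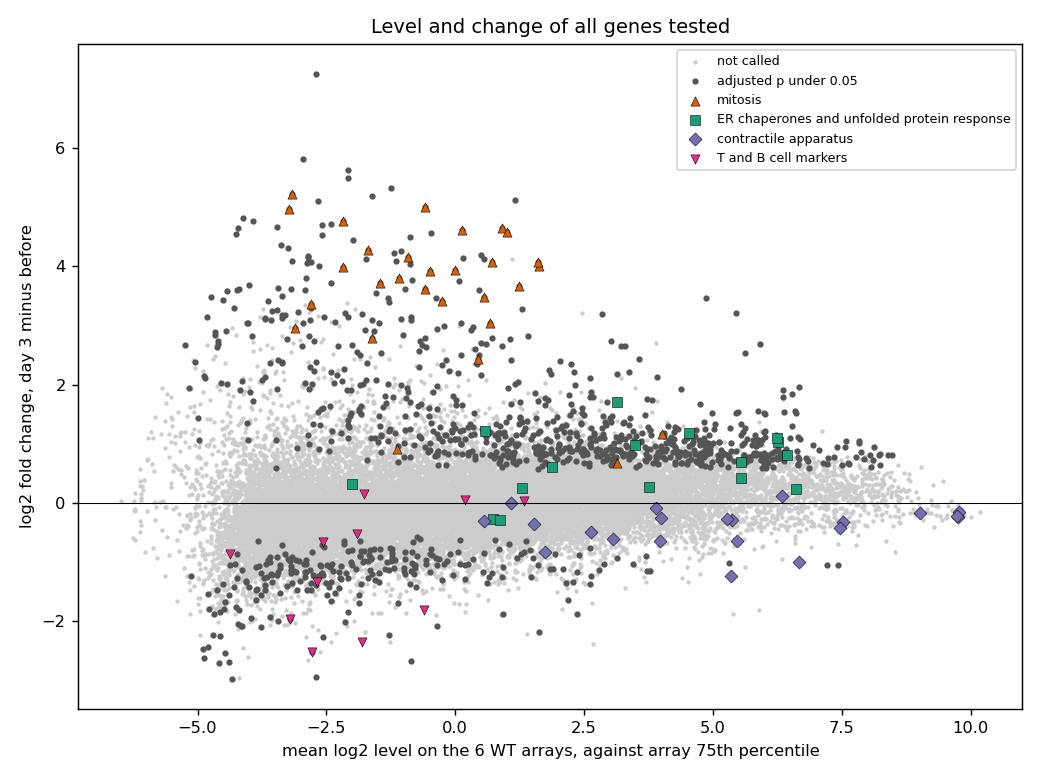
Log2 fold change from before challenge to day 3 (vertical axis) against the mean log2 level on the 6 WT arrays (horizontal axis, against the 75th percentile of the array) for 22765 genes, with genes at an adjusted p under 0.05 in dark grey and 4 lists in colour. The mitosis genes lie at a median of 3.92 on the log2 scale, the ER genes between -0.28 and 1.71, the contractile genes around and below 0 at mostly high levels, and the T and B cell markers at low levels, most of them below 0.

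Since replicate 4 differed, its values were also taken for genes chosen without it. Of 2268 genes called higher from replicates 1 and 3 alone, replicate 4 was above all arrays before in 1854 (81.7%), and of 1359 called lower, it was below all arrays before in 872 (64.2%). These genes were chosen against the same arrays before challenge, which by itself raises both shares, so that they are a description. The medians over the genes called higher were 1.21, 1.03 and 0.48 on replicates 1, 3 and 4, of which the first pair chose the genes, and over those called lower -1.11, -1.0 and -0.25. Over the 816 genes called higher on all arrays, the change on replicate 4 had a median of 56.1% of the mean change on the others, and it reached that mean in 45. Over the 249 called lower it had a median of 73.7% and reached it in 58. These genes were called with replicate 4 in the fit. Why replicate 4 differed was not tested.

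Tissue around the aorta was measured through markers of other cells, of which 0 passed (limma). At an unadjusted p under 0.05 there were 2 fibroblast markers higher and 2 lower, 1 striated muscle and 1 red blood cell marker higher, 2 nerve markers lower, and 0 of fat, mesothelium and the adrenal gland. Ucp1, a marker of brown fat, was high on single arrays of both groups, with levels of 2.44, -0.13 and -1.67 before and of -2.93, 4.56 and 2.04 at day 3. The mesothelial sum was lowest on replicate 3 of both groups, at 4.31 before and 3.07 at day 3 against 7.51 to 24.96 on the others. Fibroblast, striated muscle, adrenal, nerve and red blood cell markers had 0 called genes, and the fibroblast sums were 255.09 to 279.83 before and 254.72 to 367.36 at day 3. Fat and mesothelial values thus overlapped between groups and differed several-fold within them.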

How the data were processed

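Total RNA of mouse aortic tissue was hybridised to 12 one-colour microarrays, of which the 6 from WT mice are compared here and the other 6 enter only the estimate of the spread. The authors deposited scanner files, whose processed signal, an intensity for each spot, was made with Agilent Feature Extraction (version 9.5.1.1 in the submitters' processing notes, while the file headers name a later one) by subtraction of the background and of its spatial trend. The authors also deposited a value table of the same arrays, in which the intensity values are on a linear scale and were quantile normalized by the authors. It served as an alternative.

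Log2 of the processed signal was taken and the 75th percentile of the array subtracted, leaving out control spots and spots marked as outliers. Of 55681 probes, 32287 were kept, namely those well above background on each of the 3 arrays of 1 or more groups, and a gene name with several was represented by its brightest one. Means of the 4 groups were then estimated and compared in limma 3.58.1 (R 4.3.3), with Benjamini-Hochberg adjustment over 22765 genes. The procedure was also tested on simulated data. There a gene had the same spread on all arrays, so that an array set apart like day 3 replicate 4 was not simulated. Each adjusted p in the text comes from the limma fit of the measured levels unless stated. A gene whose probe was not well above background on any array of 1 group has only a bound, set against the higher of its own signal and the lowest signal well above background on each array. Of the tested genes 15780 (69.3%) matched the RefSeq table of GRCm38.p6, 14117 by name, 1474 by accession and 189 by synonym, and promoters came from the same assembly. Probe positions are those of the files (mm9), and gene models on mm9 were not used here. Depth has no meaning for arrays, and their number limits the precision.

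The genes named by rule were the 15 largest rises and 15 largest falls among called genes without overlap whose probe was well above background on the 6 WT arrays and which had a RefSeq symbol, the 6 largest bounds, and of each list its first 2 genes and up to 3 called genes with the smallest p. Other list members and the genes of the marker lists given with values were chosen after their values were seen. The members of the 27 gene lists and 12 marker lists were chosen with earlier results of these data known, and list medians are descriptions with no test. The probes of Itgam, Csf3r and Snap25 were left out of the summed marker signals after their values were seen. Alternatives to the background correction, scaling, filter, probe choice, arrays in the fit, slide, replicate number, moderation and array weights were computed, and each WT array was left out in turn. A few genes that the rule names are not reported here.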

Additional observations from a re-analysis of the deposited data

How the results depend on the processing

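The number of genes at an adjusted p under 0.05 (limma, 1065 of 22765) depended on the processing. It was 615 with quantile normalization, 703 with the 75th percentile over probes that every array measured well above background, 614 with the authors' value table, 1844 with trend and robust moderation, 2368 with the slide as a block and 7861 with array weights, which gave day 3 replicate 4 the lowest weight of the WT arrays. Without a filter on dim probes it was 10 of 34797. The 6 WT arrays alone gave 0 genes, with 6526 at an unadjusted p under 0.05. The replicate block gave 0 as well (smallest adjusted p 0.0521, 5312 at an unadjusted p under 0.05). The WT groups share only replicate numbers 1 and 3, and nothing in the labels ties samples of the same number together, so that the numbers do not pair the samples. Leaving out 1 array at a time gave 0 to 3627 genes, the highest without day 3 replicate 4. With normexp background correction it was 768, with arrays set to their medians 1062, with the mean of the probes of a gene 1032, and with probes well above background on the 6 WT arrays 1183 of 19959.

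The count of genes past an unadjusted p of 0.01 and 4-fold (292) was less sensitive to the spread. It was 104 with normexp correction, 151 with probes well above background on the 6 WT arrays, 502 with array weights and 195 to 568 without 1 array. The 8038 genes without overlap became 8809 to 12538 without 1 array, where fewer arrays have to be separated. The cause of the other shifts was not tested.

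Of the genes named by rule, 79 were called and 0 of these turned direction. Since the groups did not overlap in any called gene, leaving out 1 array could not turn them. Of the 40 not called, some with a change near 0 turned direction. The log2 fold change of Stat3 was -0.033 with quantile normalization and with the value table. That of C3 was -0.213 and -0.210 in these, -0.108 with the percentile over probes measured on every array, -0.061 with the mean of the probes, -0.054 with the replicate block, -0.010 with array weights and -0.009 to 0.143 without 1 array. Mtor was at 0.019 with arrays set to their medians, 0.050 with the mean of the probes and -0.381 to 0.040 without 1 array. Akt2 was at 0.153 with arrays set to their medians and -0.083 to 0.025 without 1 array. Fos was at -0.092 and Per2 at -0.118 with the percentile over probes measured on every array, and Per2 at -0.163 with the replicate block. Ncl was at -0.213 with the mean of the probes. Without 1 array, Fos ranged from -0.247 to 0.526, Per2 from -0.701 to 0.745, Arntl from -1.333 to 0.015 and Kcnma1 from -0.628 to 0.097. With 3 arrays a group the number of arrays limits the precision, and signal over background limits the sizes given for dim genes.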
